A study of Mus musculus with 6 samples.

Results

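The 8 genes described here belong to the enterocyte brush border: the peptidases Anpep, Enpep, Ace, Dpp4, Mep1a and Mep1b, the peptide transporter Slc15a1 and the intestinal alkaline phosphatase Alpi. They were chosen by name, as a set of surface proteins that complete protein digestion, and their rows were found by Ensembl ID. All 8 were among the 22274 genes listed and among the 14005 genes with enough counts to be tested.

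The brush border is the dense layer of microvilli on the lumenal face of absorptive enterocytes. Pancreatic proteases leave short peptides, which membrane-bound peptidases trim from either end or cut internally into free amino acids, dipeptides and tripeptides. Slc15a1 (PEPT1) carries the dipeptides and tripeptides into the cell together with protons, and amino acid carriers take up the rest. These genes are switched on as cells leave the crypt and mature along the villus.

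Isolated epithelial cells of the mouse ileum gave 6 RNA-seq libraries, 3 controls, with LoxP as genotype and Olfm4 in their titles, and 3 labelled as stem cell-specific Ogt knockouts. The knockouts combined floxed Ogt with Olfm4-CreER, a tamoxifen-dependent recombinase made in crypt stem cells. Mice of 2 months received tamoxifen on 3 successive days, and the ileum was collected on day 10, when the labels describe its epithelium as lacking Ogt. Ogt encodes the enzyme that adds O-GlcNAc to nuclear and cytoplasmic proteins, and the title of the study concerns epithelial homeostasis, repair and mTORC1 activity. The labels do not say whether the controls carried the recombinase; if they did not, its own effects cannot be told apart from those of Ogt loss. The labels also do not tie each library to an animal of its own, so the p-values rest on a spread that may be technical. Libraries held 14389429 to 18076479 estimated counts. Ogt stood at 127 to 140 CPM (counts relative to library size, with TMM scaling factors) in the controls and at 36.0 to 48.5 CPM in the knockouts, a log2 fold change of -1.63 ± 0.13 (SE; adjusted p = 0.00121), lower in 3 of 3 knockout libraries.

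Alpi, Slc15a1 and Mep1a fell in Ogt knockout libraries, and none of the 8 genes rose. By mean CPM, Slc15a1 stood at 36.3% of its control level, Mep1a at 52.0% and Alpi at 53.2%. Enpep, Dpp4 and Anpep had lower fitted levels but did not pass the test, and Mep1b and Ace stood slightly above control without passing it. By the quasi-likelihood test of edgeR, with p-values adjusted over all tested genes by Benjamini-Hochberg and a threshold of 0.05, 3 of the 8 were lower and 0 higher, where 9.37% of all tested genes were lower, 9.33% higher and 18.7% called either way. Slc15a1 alone was called at a fold change of at least 2 downward, as were 3.18% of all tested genes. At an unadjusted p under 0.05, 4 were lower and 0 higher. The share of all tested genes at that threshold is not given here. DESeq2 called 3 lower and 0 higher, against 1546 lower and 1655 higher of 14005 tested genes. With limma voom the counts were 2 and 0, against 1278 and 1334 of all tested genes. The median log2 fold change of the 8 genes was -0.69, against -0.05 for all tested genes. The groups did not overlap for 3 of the 8 genes, all lower; of all tested genes, 39.8% had groups apart, 20.2% with the knockouts lower and 19.6% with them higher. Scaling by library size alone gave 859 lower and 2045 higher genes in place of 1312 and 1307, and left the same count of 3 members lower. In such bulk samples, fewer mature enterocytes and less RNA of these genes per enterocyte cannot be told apart.

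**Figure D1:**
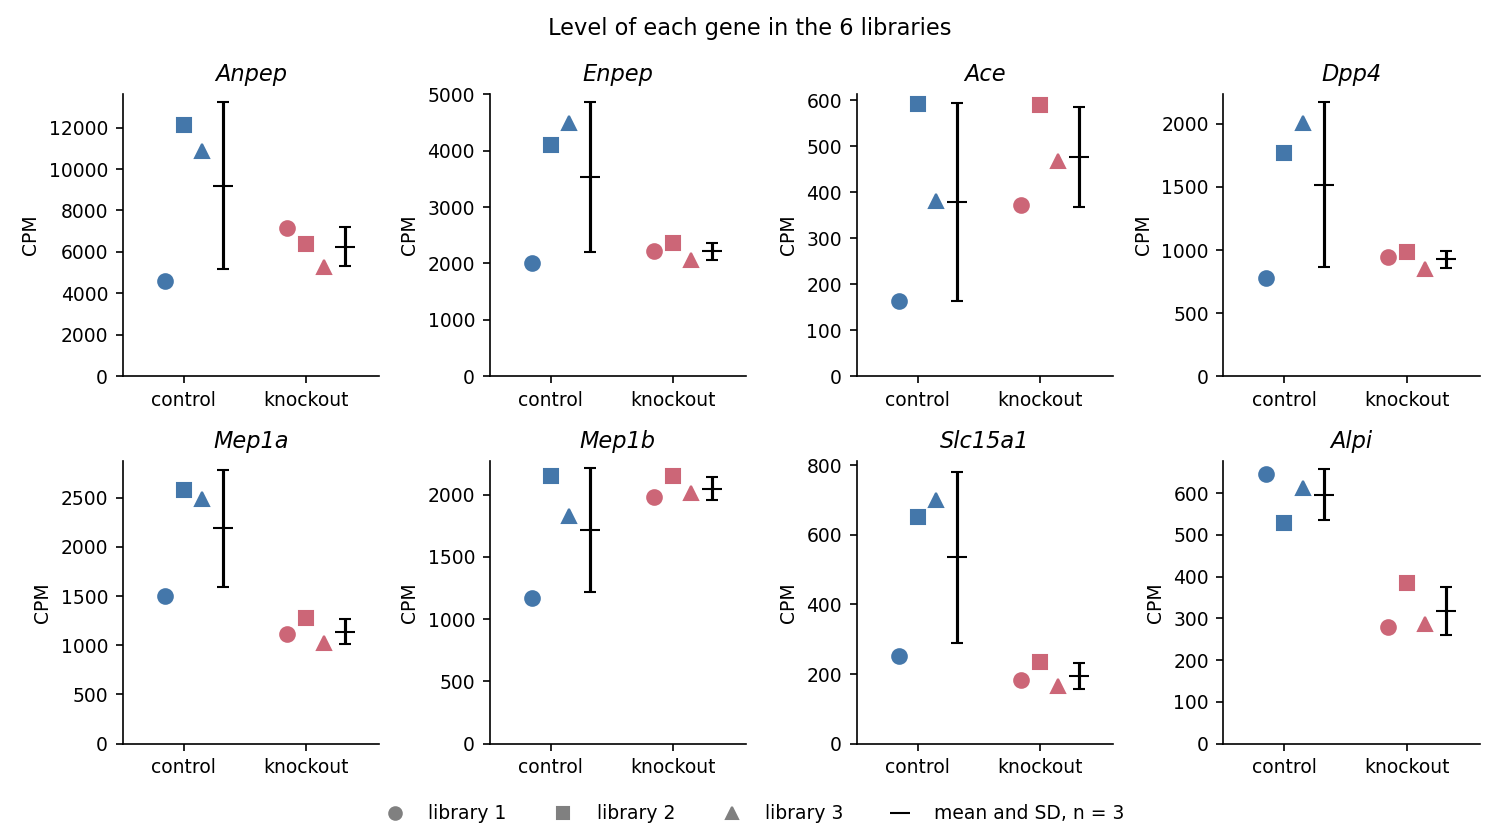
Level of each gene in every library, in CPM on linear axes from 0, with control libraries in blue, knockout libraries in red, library numbers as symbols and the mean with its SD (n = 3) as a black bar. Control 1 (circle) lay below controls 2 and 3 for every gene but Alpi, and for Alpi, Slc15a1 and Mep1a all knockout libraries lay below all controls.

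Alpi, intestinal alkaline phosphatase, removes phosphate from nucleotides and from bacterial lipopolysaccharide at the enterocyte surface. It stood at 647, 529 and 613 CPM in controls 1 to 3 and at 281, 384 and 288 CPM in knockouts 1 to 3. Every knockout library lay below every control, and the controls differed little from each other. The mean went from 596 ± 60.9 to 317 ± 57.7 CPM (SD, n = 3), a log2 fold change of -0.91 ± 0.16 (SE here and below; adjusted p = 0.00828). Alpi passed the test with any 1 library left out (adjusted p up to 0.0462). Its relatives were scarce in these cells. Akp3, an alkaline phosphatase of the proximal intestine, had 2, 10 and 31 counts in the controls and 6, 6 and 4 in the knockouts, too few to be tested. Alppl2 had 65, 50 and 33 against 25, 21 and 22 counts and missed the threshold (-1.14 ± 0.36, adjusted p = 0.0604), and Alpl, the tissue-nonspecific form, stood at 0.15 ± 0.35. Within a library, the FPKM + 0.1 of Alpi was between 220 and 1594 times that of Akp3; this ratio rests on few Akp3 counts, and the added 0.1 exceeds the Akp3 value of 0.07 FPKM in control 1. It differed between groups by -0.22 on the log2 scale, less than the control SD of 1.44 (exact permutation test, p = 0.9). With 1 FPKM added in place of 0.1 the difference was -0.53 (exact p = 0.2), and it turned to 0.54 without control 1 and to 0.0078 without knockout 1.

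Slc15a1 carries the products of the peptidases into the cell. It stood at 253, 652 and 701 CPM in controls 1 to 3 and at 184, 235 and 165 CPM in knockouts 1 to 3. The groups did not overlap, although control 1 lay much nearer to the highest knockout library than to the other controls. The mean went from 536 ± 246 to 195 ± 36.3 CPM, a log2 fold change of -1.46 ± 0.38 (adjusted p = 0.0411). The call was lost without control 2, control 3 or any 1 knockout library (adjusted p up to 0.132), with limma voom (0.0564), without a count filter (0.0663), with the replicate number as a block (0.0587) and in the 3 settings of limma on log2 FPKM (0.0635 to 0.0743). Leaving out control 1 gave -1.75 (adjusted p = 0.00120).

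The 2 meprin genes separated. Mep1a and Mep1b encode the alpha and beta subunits of meprin, a zinc endopeptidase that assembles from both, with the beta subunit anchored in the membrane. Mep1a stood at 1503, 2575 and 2489 CPM in controls 1 to 3 and at 1117, 1273 and 1027 CPM in knockouts 1 to 3. It fell without overlap of the groups (-0.94 ± 0.22, adjusted p = 0.0226). Mep1b stood at 1169, 2152 and 1827 CPM in the controls and at 1982, 2149 and 2015 CPM in the knockouts, with the knockouts inside the control range (0.26 ± 0.22, adjusted p = 0.448). Per length, the pair was level in the controls: the FPKM ratio of Mep1a to Mep1b (FPKM + 0.1 in both) was 1.01, 0.936 and 1.06 in controls 1 to 3. It was 0.441, 0.463 and 0.398 in knockouts 1 to 3, so all knockout ratios lay far below all control ratios. The difference was -1.21 on the log2 scale, against SDs of 0.09 in control and 0.11 in knockout libraries. An exact permutation test gave p = 0.1, the smallest that 3 against 3 libraries allow (two-sided; 0.2 adjusted over the 4 ratios examined). Control 1, low in both genes, had a ratio between those of the other controls. Mep1a lost its call without control 2, control 3 or any 1 knockout library (adjusted p up to 0.0971).

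**Figure D2:**
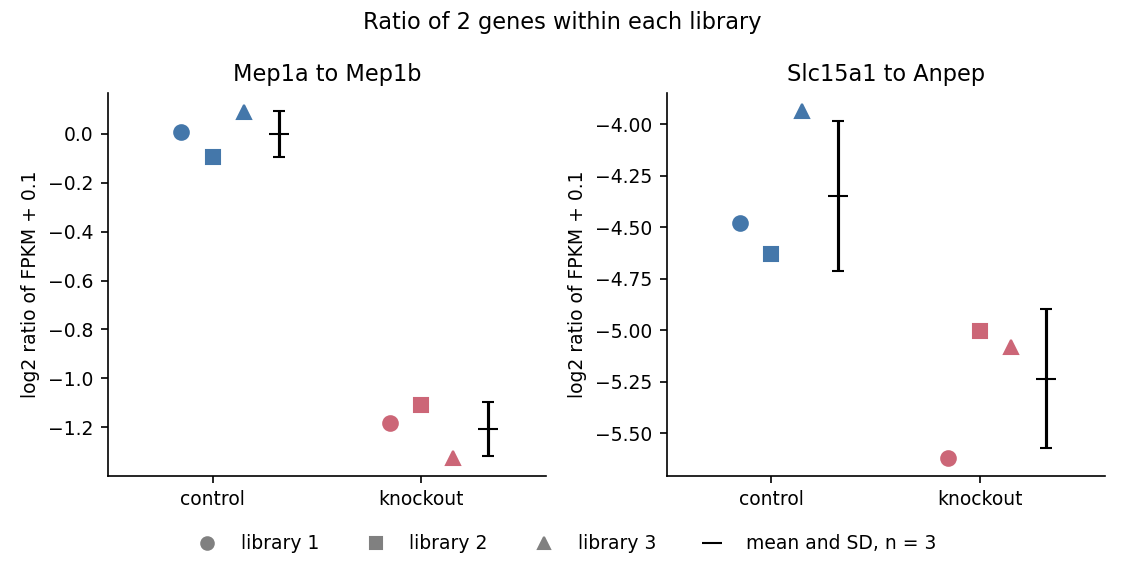
Log2 ratio of the FPKM + 0.1 of 2 genes within each library, Mep1a to Mep1b on the left and Slc15a1 to Anpep on the right, with library numbers as symbols and the mean with its SD (n = 3) as a black bar. The Mep1a to Mep1b ratio lies near 0 in the 3 controls and near -1.21 in the 3 knockouts; the axes do not start at 0.

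The promoters of Alpi, Slc15a1 and Mep1a are shown because theirs were the 3 transcripts that fell. The windows are the 250 bases before the start of transcription, 5′ to 3′ on the strand of the gene, from RefSeq on GRCm38.p6, an older build than the GRCm39 of the submitters' processing notes; 7 of the 8 genes had an entry. All 3 genes lie on the minus strand, and the windows are chr1:87101607-87101856 for Alpi, chr14:121505255-121505504 for Slc15a1 and chr17:43502774-43503023 for Mep1a. Capitals mark matches on either strand to 7 short motifs. These were the box TATAAA found near many start sites, the core CAAAGTCCA bound by HNF4 factors, the partial site GTTAAT of HNF1 factors, the letters TTTATG bound by caudal (CDX) factors, the letters AGATAA bound by zinc finger factors such as Gata6, the letters CACCC bound by KLF factors, and the letters TGANTCA bound by AP-1. In these 3 windows no match of 1 motif overlapped a match of another.
Alpi: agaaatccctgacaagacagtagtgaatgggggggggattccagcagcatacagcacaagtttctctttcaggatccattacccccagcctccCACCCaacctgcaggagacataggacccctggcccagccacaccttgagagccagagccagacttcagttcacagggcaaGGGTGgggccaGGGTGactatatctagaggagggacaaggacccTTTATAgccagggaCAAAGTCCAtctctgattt
Slc15a1: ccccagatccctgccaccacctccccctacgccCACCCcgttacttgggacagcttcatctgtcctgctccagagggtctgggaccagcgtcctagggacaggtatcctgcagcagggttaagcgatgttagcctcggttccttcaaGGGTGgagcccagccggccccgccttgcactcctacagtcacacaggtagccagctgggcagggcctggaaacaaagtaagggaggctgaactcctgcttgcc
Mep1a: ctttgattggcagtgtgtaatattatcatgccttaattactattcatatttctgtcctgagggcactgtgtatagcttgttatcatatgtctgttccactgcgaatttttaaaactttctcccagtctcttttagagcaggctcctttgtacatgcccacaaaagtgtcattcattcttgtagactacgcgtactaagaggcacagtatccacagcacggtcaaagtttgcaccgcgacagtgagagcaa
Alpi held TATAAA, on the opposite strand, at positions -33 to -28 from the start and CAAAGTCCA at -19 to -11. Among 27025 RefSeq promoter windows of the same length, with 1 window taken per gene, 13.0% held TATAAA and 0.381% held CAAAGTCCA. Slc15a1 held CACCC and none of the other motifs; 51.3% of the windows held CACCC, with or without others. The Mep1a window held none of the 7 motifs. The HNF1 letters were in 6.52%, the CDX letters in 11.1%, the Gata6 letters in 10.3% and the AP-1 letters in 6.87% of windows. A match is a description of the sequence and shows no binding.

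Anpep and Enpep are the aminopeptidases of the set. Aminopeptidase N, encoded by Anpep, removes neutral residues from the amino end of peptides, and Enpep (aminopeptidase A) removes acidic ones. Anpep was the seventh most abundant gene by mean count, with 4616, 12113 and 10867 CPM in controls 1 to 3 and 7163, 6360 and 5247 CPM in knockouts 1 to 3. The knockout libraries lay between control 1 and the other controls (-0.56 ± 0.34, adjusted p = 0.294). Enpep showed the same arrangement, with 2014, 4100 and 4500 CPM in the controls and 2222, 2360 and 2058 CPM in the knockouts (-0.68 ± 0.28, adjusted p = 0.133). The FPKM ratio of Anpep to Enpep differed between groups by 0.14 on the log2 scale, less than the SD of 0.37 in the controls (exact permutation test, p = 0.6; 0.8 adjusted over the 4 ratios).

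Dpp4 and Ace remove dipeptides. Dpp4 takes them from the amino end, after proline or alanine, and is also known for cleaving incretin hormones. It stood at 775, 1771 and 2007 CPM in controls 1 to 3 and at 944, 986 and 851 CPM in knockouts 1 to 3, again above control 1 and below the other controls (-0.71 ± 0.32, adjusted p = 0.170). Ace, angiotensin-converting enzyme, takes them from the carboxyl end. Its levels were 164, 593 and 380 CPM in the controls and 373, 590 and 468 CPM in the knockouts. It was the most variable of the set in the controls, with a 3.62-fold span, and the groups overlapped (0.33 ± 0.45, adjusted p = 0.644).

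Slc15a1 and Anpep were set against each other as transporter and most abundant peptidase. The FPKM ratio of Slc15a1 to Anpep was 0.0448, 0.0404 and 0.0654 in controls 1 to 3 and 0.0203, 0.0312 and 0.0295 in knockouts 1 to 3. All knockout ratios lay below the controls. The difference was -0.89 on the log2 scale (exact permutation test, p = 0.1, the smallest possible; 0.2 adjusted over the 4 ratios). The lengths behind the deposited FPKM of Anpep differed between libraries, and with CPM in place of FPKM the difference was also -0.89.

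Control 1 stood apart in 7 of the 8 genes. Relative to the mean of controls 2 and 3, its level was 0.337 for Ace, 0.374 for Slc15a1, 0.402 for Anpep, 0.410 for Dpp4, 0.468 for Enpep, 0.587 for Mep1b and 0.594 for Mep1a. Alpi alone was higher in control 1, at 1.13. Across the 4954 tested genes whose log2 CPM averaged 5 or more, the median of this ratio was 1.005, and between 0.384% of genes (Ace) and 4.20% (Mep1a) lay at or below the 7 values. Without control 1, 6 of the 8 genes were lower, against 9.63% of all genes tested in that setting. The genes added were Anpep (-0.83, adjusted p = 0.00830), Enpep (-0.91, adjusted p = 0.00287) and Dpp4 (-0.98, adjusted p = 0.00234). Mep1b (0.09) and Ace (0.02) stood near 0 without it. With any other library left out, 1 of the 8 genes was lower, Alpi. Lower calls over all genes were also fewer in those settings, 460 to 897 of 14172 to 14262 tested genes, against 1312 of 14005 with all 6 libraries. Relative to control 1 alone, the knockout mean was lower for Alpi (0.491), Mep1a (0.758) and Slc15a1 (0.768) and higher for the other 5 genes.

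**Figure D3:**
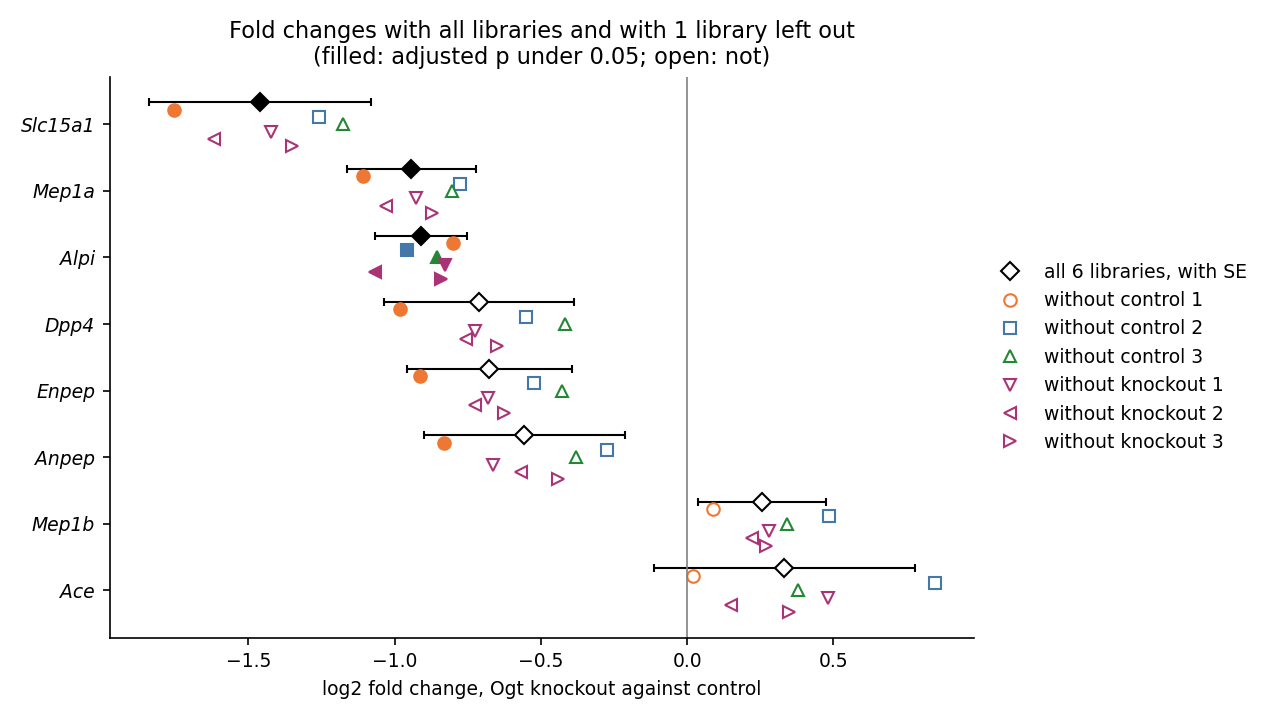
Log2 fold change of each gene with all 6 libraries (black, with SE) and with 1 library left out (coloured symbols); filled symbols have an adjusted p under 0.05. Alpi stays filled throughout, while Anpep, Enpep and Dpp4 are filled only without control 1, and Mep1b and Ace are never filled.

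Within the knockout group the 8 genes varied less than in the controls, apart from Alpi. The coefficient of variation in the controls was 56.6% for Ace, 45.9% for Slc15a1, 43.7% for Anpep, 43.1% for Dpp4, 37.7% for Enpep, 29.2% for Mep1b, 27.2% for Mep1a and 10.2% for Alpi. In the knockouts it ran from 4.32% for Mep1b to 22.8% for Ace, with Alpi at 18.2%. The median over the 4954 genes named above was 10.5% in the controls and 8.60% in the knockouts. Spread was not tested between groups.

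The order of the levels per length differed between the groups. In the controls, the mean FPKM was 3293 ± 1552 for Anpep, 808 ± 293 for Enpep, 713 ± 197 for Mep1b, 711 ± 181 for Mep1a, 273 ± 114 for Dpp4, 244 ± 28.9 for Alpi, 163 ± 72.3 for Slc15a1 and 87.5 ± 53.4 for Ace. Control ranges overlapped between Enpep and Mep1b, Mep1b and Mep1a, Dpp4 and Alpi, and Slc15a1 and Ace. Slc15a1 nevertheless stood above Ace within each of the 3 control libraries, while the order of the other 3 pairs varied between libraries. In the knockouts the order was Anpep (2468 ± 493 FPKM), Mep1b (939 ± 60.5), Enpep (557 ± 33.6), Mep1a (408 ± 43.5), Dpp4 (184 ± 11.3), Alpi (142 ± 27.1), Ace (122 ± 27.0) and Slc15a1 (65.2 ± 12.1). There the ranges of Alpi and Ace alone overlapped among neighbours. Mep1b stood above Enpep in every knockout library, and Slc15a1 below Ace.

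The library profiles sorted the genes by likeness. Profiles were log2 CPM centred on the gene's own mean, and likeness was the root mean square distance over the 6 libraries, a description that reflects both group and library differences. Enpep and Dpp4 lay 0.0658 log2 units apart. Among 9192 genes whose log2 CPM averaged 3 or more, none was nearer to Dpp4 than Enpep, and 1 was nearer to Enpep than Dpp4. Anpep lay 0.154 from Dpp4 and 0.168 from Enpep. Outside the set, Enpep was nearest to Nr6a1 (0.0586), and Dpp4 was nearest to Nr6a1 (0.0968) and sucrase-isomaltase, Sis (0.109). Anpep was nearest to the riboflavin transporter Slc52a3 (0.0937) and to Mgam (0.110), a brush border glucosidase. Mep1a was nearest to Idua (0.0855) and Ggt1 (0.0893), Mep1b to Prodh (0.0628) and Rab20 (0.0628), and Slc15a1 to Ralgps1 (0.171) and the sulfate transporter Slc13a1 (0.175). Alpi was nearest to Mical3 (0.0818) and Ret (0.0839). Ace was nearest to Slc43a3 (0.133) and to Igkc (0.136), an immunoglobulin light chain gene of plasma cells.

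**Figure D4:**
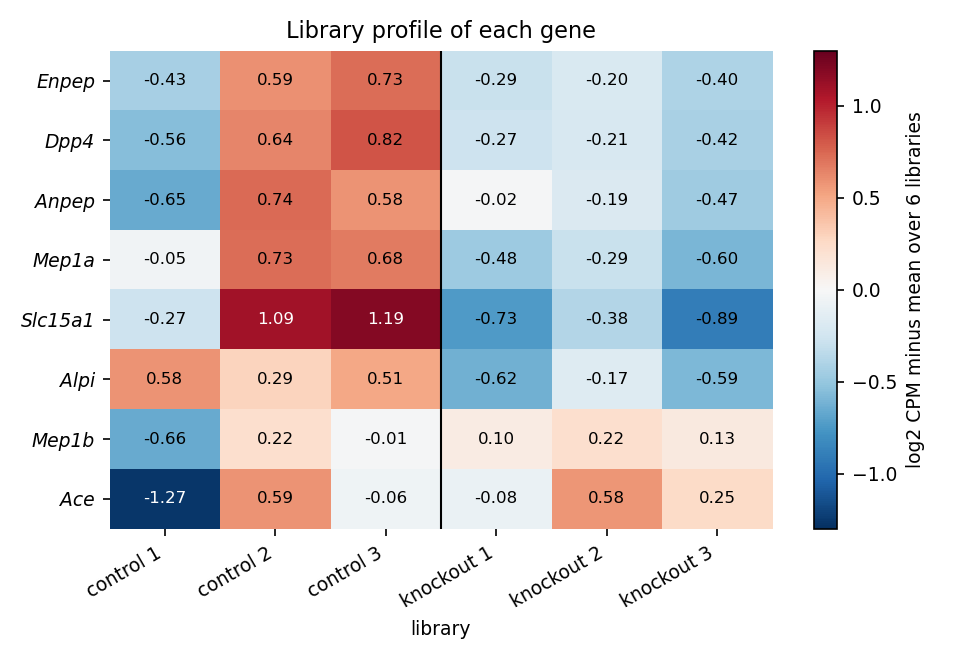
Log2 CPM of each gene minus its mean over the 6 libraries, with libraries as columns and genes as rows; red is above and blue below the mean, and the value is printed in each cell. Enpep, Dpp4 and Anpep share a profile with control 1 beside the knockouts, and Alpi separates all controls from all knockouts. Control 1 is the lowest library for Mep1b and Ace, and also for Enpep, Dpp4 and Anpep.

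Of 8 tested peptidases and partners of the same surface, 2 fell and none rose (median -0.63), where 9.37% of all tested genes were lower. The count was 1 with library size alone or voom, 3 with DESeq2 and 0 in the 3 FPKM settings. Ggt1, gamma-glutamyltransferase, which starts the breakdown of extracellular glutathione, stood at 372, 646 and 646 CPM in the controls and at 256, 352 and 278 CPM in the knockouts (-0.91 ± 0.23, adjusted p = 0.0324). Dpep1, a membrane dipeptidase, fell as well (-0.75 ± 0.22, adjusted p = 0.0476). Each lost its call without control 2, control 3 or any 1 knockout (adjusted p up to 0.118 and 0.162). Without control 1 the list had 4 lower genes, where 9.63% of all genes tested in that setting were lower. Naaladl1, a dipeptidylpeptidase-like protein and the most abundant of the list by mean FPKM, stood at -0.30 ± 0.20 (adjusted p = 0.326). Enteropeptidase, Tmprss15, was listed at 0 in all libraries and Folh1 had too few counts to be tested.

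Some peptidases of the cell interior finish the peptides that Slc15a1 brings in. Among 12 interior peptidases, 2 genes were higher and 2 lower (median -0.01), where 9.33% and 9.37% of all tested genes were. Both counts depended on the setting. The count of lower genes was 1 under DESeq2, voom, upper quartile factors or no count filter, and 0 under library size alone or the 3 FPKM settings. That of higher genes was 1 under voom or no count filter, 3 under DESeq2 and 4 with the replicate block. Thop1, thimet oligopeptidase, rose from 11.6 ± 1.88 to 20.8 ± 1.54 CPM (0.84 ± 0.16, adjusted p = 0.0107), with any 1 library left out as well. Dnpep, aspartyl aminopeptidase, fell (-0.43 ± 0.12, adjusted p = 0.0401), and Nln and Dpp3, named after their values were seen, stood at 0.39 ± 0.11 and -0.31 ± 0.09. Dpp3 lost its call whichever library was left out (adjusted p up to 0.168). In the same fits Dnpep kept its call only without knockout 2, and Nln only without control 1 (adjusted p up to 0.137 for each). Without control 1, 0 of the list were lower and 2 higher, against 1372 and 1932 of 14245 tested genes. Cndp2, a cytosolic dipeptidase and the most abundant of the list by mean FPKM, stood at -0.02 ± 0.20.

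Amino acid carriers of the enterocyte take up the free amino acids that the peptidases release. Of 10, 2 fell and none rose (median -0.54), where 9.37% of all tested genes were lower. The count of lower genes was 1 with library size alone or in the 3 FPKM settings, 3 with DESeq2 and 4 with the replicate block. Slc6a20a, a sodium-dependent carrier of proline, stood at 220, 264 and 228 CPM in controls 1 to 3 and at 59.9, 68.8 and 39.7 CPM in knockouts 1 to 3. The groups lay far apart, with control 1 beside the other controls (-2.08 ± 0.20, adjusted p = 0.00169). Slc3a1, the heavy subunit of the cystine carrier and the most abundant of the list by mean FPKM, fell (-0.54 ± 0.14, adjusted p = 0.0316), but not without control 2, control 3 or any 1 knockout (adjusted p up to 0.114). Without control 1, 7 of the 10 were lower, against 9.63% of all genes tested in that setting.

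Of 7 relatives and partners of Slc15a1, Slc9a2, a sodium-proton exchanger, fell (-0.73 ± 0.20, adjusted p = 0.0373) and none rose, where 9.37% of all tested genes were lower. The call was lost with library size alone and in the 3 FPKM settings, which left 0 lower, and without control 1, control 3, knockout 2 or knockout 3 (adjusted p up to 0.137). Slc9a3, the apical exchanger that restores the proton gradient used for peptide uptake, stood at -0.59 ± 0.26 (adjusted p = 0.153), and the abundant scaffold gene Slc9a3r1 (NHERF1) at 0.11 ± 0.22.

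Of 23 other absorptive enterocyte genes, 3 were lower and none higher (median -0.21), a share near the 9.37% of all tested genes that were lower. DESeq2 called 5 lower. Fabp1 (-1.67 ± 0.26, adjusted p = 0.00586) and the bile acid importer Slc10a2 (-1.35 ± 0.22, adjusted p = 0.00656) fell, as did Fabp2 (-0.78 ± 0.16, adjusted p = 0.0144), named after its values were seen, which lost its call without control 3 or knockout 3 (adjusted p up to 0.0693). Fabp6, the gene of highest mean FPKM, stood at -0.18 ± 0.15. Without control 1, 10 of the 23 were lower, Sis and Mgam among them, against 9.63% of all genes tested in that setting. Vil1 (villin), a structural protein of the microvillus core named after its values were seen, stood at 0.02 ± 0.17 (3147 ± 445 against 3189 ± 369 CPM).

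**Figure D5:**
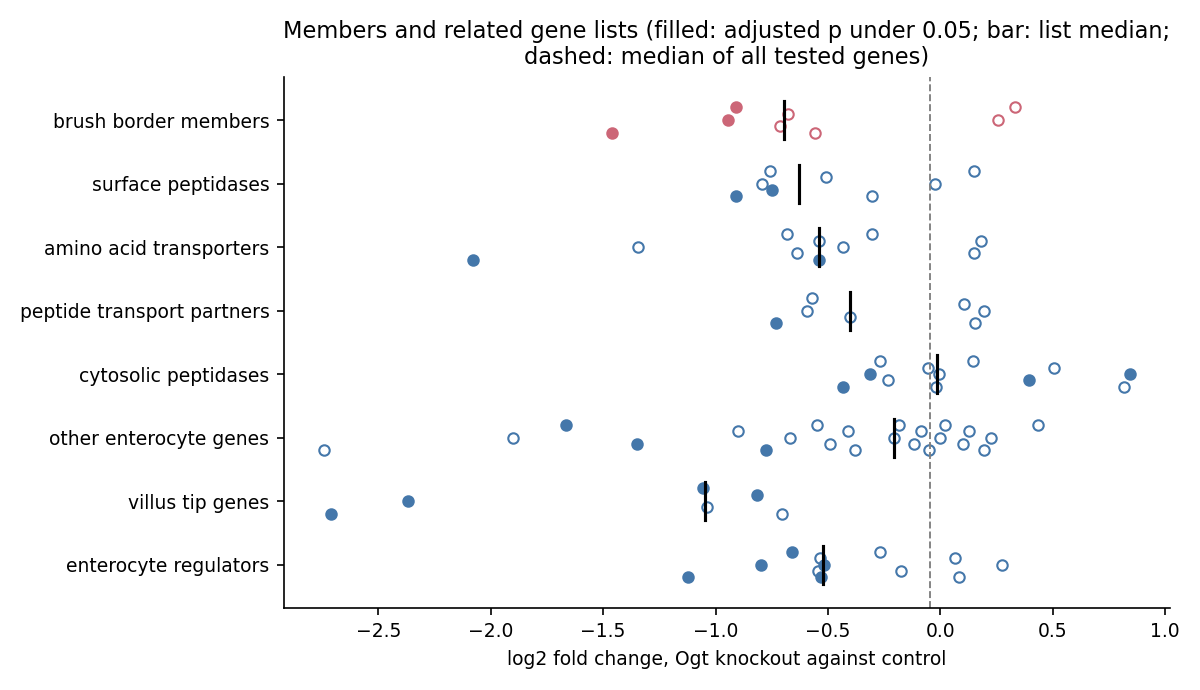
Log2 fold change of each tested gene of the brush border set (red) and of related gene lists (blue); filled points have an adjusted p under 0.05, black bars are list medians and the dashed line is the median of all tested genes. The villus tip list has the lowest median (-1.05) and the cytosolic peptidases lie around the dashed line.

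Some genes of the upper villus and some regulators of enterocyte maturation fell, where 9.37% of all tested genes were lower. Of 6 villus tip genes, 4 fell and none rose (median -1.05; 2 lower with library size alone or no count filter, 2 to 3 in the FPKM settings): Creb3l3 (-1.06 ± 0.22, adjusted p = 0.0158), Klf4 (-0.81 ± 0.19, adjusted p = 0.0223), and, named after their values were seen, Nt5e (-2.71 ± 0.70, adjusted p = 0.0465) and Slc28a2 (-2.37 ± 0.61, adjusted p = 0.0466). Ada, the gene of highest mean FPKM, stood at -1.04 ± 0.58 (adjusted p = 0.267). By summed level, control 1 was the highest library of this list, at 1928 CPM against 1089 and 1221 CPM in controls 2 and 3 and 468 to 775 CPM in the knockouts. Klf4 went the other way among the controls, with 360 CPM in control 1 against 479 and 551 CPM in controls 2 and 3. Calls were lost when 1 library was left out for Creb3l3 (control 3 or any knockout; adjusted p up to 0.0703), Klf4 (control 2 or 3 or knockout 2 or 3; up to 0.0859), Nt5e (any knockout; up to 0.170) and Slc28a2 (any library; up to 0.154). Of 12 enterocyte transcription factors, 5 fell and none rose (median -0.52), against 9.37% of all tested genes lower. With library size alone, 4 of the 12 were lower. Hnf4g (-0.80 ± 0.13, adjusted p = 0.00667) fell, also with any 1 library left out. Cdx2 (-0.53 ± 0.11), Gata6 (-0.66 ± 0.13) and Klf5 (-0.52 ± 0.13), named after their values were seen, fell as well and lost the call without control 3, knockout 2 or knockout 3, Klf5 also without control 2 (adjusted p up to 0.0584, 0.0637 and 0.116). Hnf4a stood at -0.27 ± 0.13 (adjusted p = 0.198).

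Markers of other cells were examined because Ace, Anpep, Enpep and Dpp4 are also made by endothelial, stromal or immune cells. The summed level of 4 endothelial markers was 33.1 CPM in control 1, 77.1 and 58.7 CPM in controls 2 and 3 and 60.5 to 71.9 CPM in the knockouts, and 0 of the 4 passed the test (0 also at an unadjusted p under 0.05 and with DESeq2 and voom). That of 3 B and plasma cell markers, mostly Jchain, was 395 CPM in control 1, 1755 and 1026 CPM in controls 2 and 3 and 780 to 1483 CPM in the knockouts, again with 0 called by any of these. The B cell gene Cd79a, named after its values were seen, had 76 counts in knockout 1, against 611 to 702 counts in the other libraries. Control 1 was thus the lowest library in both sums, as it was for Ace and also for Anpep, Enpep, Dpp4 and Mep1b. The part of these cells in the values of those genes was not tested. Of 7 fibroblast and pericyte markers 2 rose, Col1a1 and Col1a2 (neither called without knockout 3, adjusted p = 0.0598 and 0.0595; 3 higher at an unadjusted p under 0.05 and with DESeq2, 2 with voom), with sums of 416 to 607 CPM in the controls and 530 to 643 CPM in the knockouts. T cell (5 genes), myeloid (4) and smooth muscle (4) markers had 0 called by edgeR. At an unadjusted p under 0.05, 2 smooth muscle genes were lower (1 with DESeq2, 0 with voom), and 0 of the T cell and myeloid genes by any of these. Their sums were 149 to 211 against 97.3 to 196 CPM, 193 to 213 against 158 to 207 CPM, and 742 to 1692 against 632 to 1034 CPM. The 5 epithelial markers stood at 12326 to 15288 CPM in the controls and 11362 to 13529 CPM in the knockouts with 0 called by edgeR, 1 lower at an unadjusted p under 0.05, 1 lower with DESeq2 and 0 with voom. Over all tested genes, 9.37% were lower and 9.33% higher. Of the secretory lineages, all 3 tuft cell markers fell (55.3 to 57.1 against 9.95 to 14.0 CPM). So did 1 of 6 goblet cell markers, Clca1, which lost its call without control 3 or any 1 knockout (adjusted p up to 0.104). The goblet sum was 12243 CPM in control 1, 6291 and 5091 CPM in controls 2 and 3 and 4037 to 7034 CPM in the knockouts. Of 4 Paneth cell, 3 enteroendocrine and 3 cycling markers 0 were called by edgeR, DESeq2 or voom; 2 enteroendocrine genes were higher at an unadjusted p under 0.05 and 0 of the others. Their sums were 184 to 2008 against 1059 to 2693 CPM, 24.5 to 39.4 against 39.2 to 42.4 CPM, and 203 to 401 against 345 to 469 CPM. The lowest value of each sum was that of control 2. The Paneth sum was 2008 and 1668 CPM in controls 1 and 3, and the cycling sum 401 and 343 CPM. No marker of these lists was at 0 in any library, and the part of any of these cells in the results for the 8 genes was not tested.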

How the data were processed

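The labels' protocols name Trizol extraction of total RNA and the NEBNext Ultra RNA kit, which keeps no strand information, so reads of a gene and of its antisense partner are mixed. GRCm39 and mm39 are named in the submitters' processing notes; for the aligner, the counting tool and the annotation, the sources used here name none. Per the file headers, the authors deposited FPKM values beside each gene's estimated count, for 22274 genes. Estimated counts were rounded; those of the 8 genes were whole in all 6 libraries (tolerance 0.001). Names came from GENCODE M21 by Ensembl ID for 22219 genes and from the deposited table for 43.

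Genes were kept with filterByExpr (minimum count 10, minimum total 15), scaled with TMM factors and tested with edgeR 4.0.16 (R 4.3.3; quasi-likelihood test, robust), adjusted by Benjamini-Hochberg over 14005 genes at a threshold of 0.05. SE came from the F statistic. Ratios of 2 genes used FPKM + 0.1 and two-sided exact permutation tests. The test was also run on counts simulated with the dispersions fitted to these data, and the outcome is not given here. No 2 libraries agreed within sampling noise (mean chi-square per gene at least 19.5). The members, lists, motifs and tests were chosen with earlier results of these data known. Named genes were the 8 members, Ogt, in each list the 2 genes of lowest adjusted p and its most abundant gene, and all genes of lists of 3 or fewer, and per member the 2 nearest profiles. Alternatives were other scalings, DESeq2 1.42.0, limma 3.58.1 (voom, and log2(FPKM + 0.1) or log2(FPKM + 0.01)), other filters, a replicate block, each library left out, and removal of the 20 most abundant genes; the ratios in CPM were added after seeing the data. Sequences were taken from RefSeq. A few genes that the naming rule selects are not reported here by name; list counts include them.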

Additional observations from a re-analysis of the deposited data

How the results depend on the processing

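Alpi kept its direction and its call in all 18 alternatives (log2 fold change -1.07 to -0.78). Of the other members' fold changes none changed sign. The number of members lower was 3 with all 6 libraries, 1 to 6 with 1 library left out, and 2 with voom, without a count filter and with the 3 FPKM settings, where Slc15a1 missed the threshold; the number higher was 0 in each. Over all genes, lower calls numbered 1312 and ranged from 460 to 1372 with 1 library left out, and higher calls 1307 and from 549 to 1932. Library size alone gave 859 lower and 2045 higher and shifted the log2 median over all genes from -0.05 to 0.09. Limma on log2(FPKM + 0.1), on log2(FPKM + 0.01) and with a minimum of 5 FPKM gave 724, 717 and 596 lower, with medians of 0.12, 0.12 and 0.14. The cause of these shifts was not tested. With 1 library left out, the log2 ratio difference ranged from -1.26 to -1.15 for Mep1a to Mep1b, from -1.03 to -0.68 for Slc15a1 to Anpep, from -0.89 to 0.54 for Alpi to Akp3 (above 0 without control 1, 0.54, and without knockout 1, 0.0078) and from -0.0155 to 0.35 for Anpep to Enpep (below 0 without control 3, -0.0155, and without knockout 1, -0.0115). Without the 20 most abundant genes, Anpep among them, the members could not be counted. With the replicate number as a block, 2 members were lower (Slc15a1 adjusted p = 0.0587) and 1674 genes were lower and 1728 higher. Deviations of same-numbered libraries correlated at 0.27, 0.25 and 0.08, so the numbers were not taken as pairs, although every library correlated best with its own number. With 3 libraries a group, single-gene exact tests cannot go below 0.1.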

Other observations

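The deposited counts and FPKM values together give the length by which each gene was divided. It was the same in all libraries within 2% for 44.5% of the 9987 genes with at least 50 counts and 1 FPKM in every library, and for the 8 genes it was constant for Mep1a, Mep1b, Slc15a1, Enpep, Dpp4 and Alpi. For Anpep it was 2546, 2343 and 3163 bases in controls 1 to 3 and 2465, 2635 and 2931 bases in knockouts 1 to 3, a 1.35-fold span reached or exceeded by 5.17% of genes. For Ace it ran from 3872 to 4498 bases. For Anpep the gap between controls 2 and 3 was therefore wider in FPKM (4876 against 3230) than in CPM (12113 against 10867), which uses no length.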
